A study of Mus musculus with 5 samples.

Results

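Inhibitory ligands that a tumor cell can present or secrete were examined in CD45- cells sorted from B16-OVA tumors, B16 being a mouse melanoma line and OVA the model antigen ovalbumin. They were taken by name from the 750 endogenous probes of a NanoString immune panel, and comprise Cd274 and Pdcd1lg2 (the PD-1 ligands), Cd276 (B7-H3), Pvr and Pvrl2 (ligands of the nectin family), Cd47, Lgals3 (galectin-3) and Nt5e (CD73), 8 genes in all. Tumors grew in C57BL/6 mice that were Prdm1fl/flFoxP3YFP-Cre (KO, n = 2 samples) or FoxP3YFP-Cre (WT, n = 3 samples). Both groups carried the Cre allele, received B16.OVA cells subcutaneously, were given NP-OVA intraperitoneally for immunization, at day 0 with the adjuvant CFA and at day 7 with IFA, and were sampled at tumor volumes of up to 1.5 cm3. Cre was driven from Foxp3, so Prdm1, which encodes Blimp1, was deleted in Foxp3+ regulatory T (Treg) cells of the host and not in the cells measured here. The sort used live cells without CD45, which leaves in tumor cells and any stromal or endothelial cells. The labels give no age and do not say that each sample was a separate animal, so p-values measure the spread between these samples.

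T cells, NK cells and macrophages carry receptors that restrain them once a ligand on another cell is bound. PD-1 on T cells is engaged by PD-L1 and PD-L2, TIGIT by CD155 (encoded by Pvr) and more weakly by nectin-2 (encoded by Pvrl2), and SIRPα on macrophages by CD47, which spares the bound cell from being engulfed. Galectin-3 binds glycans on surface proteins, LAG3 among them, and CD73 converts AMP to adenosine, which acts on receptors of lymphocytes. PD-L1 is the member best known to follow interferon. Several ligands serve opposing receptors, since CD155 and nectin-2 also bind CD226, an activating receptor of NK and T cells.

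Endogenous probes summed to 450207 and 461822 raw counts in the KO samples and to between 369515 and 423472 in the WT samples. Background, which was the mean of the negative control probes plus 2 SD, lay between 13.1 and 17.7 raw counts, and 401 probes above it in at least 2 samples were tested. Prdm1 and Foxp3 did not exceed 10 raw counts in any sample and so check no genotype. Ptprc, which encodes CD45, had at most 4. Of 10 melanocyte genes listed 3 were on the panel, and only S100b and Mcam were far above background. The defining pigment genes were not among them, so the label of tumor cells was checked by these genes alone. S100b had 1724 and 1849 normalized counts (raw counts scaled by the housekeeping probes of the sample) in KO samples, against 1979, 1987 and 1894 in WT samples. Markers of other cells were mixed. Raw counts were at most 5 for Itgam (myeloid cells), Pecam1 and Kdr (endothelium) and 1 in each sample for Emr1 (macrophages). Other genes of the same lists were well above background, with 120 to 278 raw counts for Cd68 (macrophage lysosomes), 905 to 1134 for Eng and 206 to 346 for Icam2 (endothelium), and 424 to 1456 for Fn1, 203 to 324 for Col4a1 and 45 to 70 for Pdgfrb (fibroblasts and pericytes).

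Of the 8 ligands, 6 were expressed well above background in every sample, 1 was at background and 1 below it. Nt5e had 6 and 3 raw counts in KO samples, against 3, 4 and 3 in WT samples, and was not tested. Pdcd1lg2 had 15 and 10 raw counts in KO samples, against 12, 15 and 12 in WT samples. It passed the filter through KO 1 and WT 2 only, by less than 2 counts, and no fold change is given for it or for Nt5e. A difference in PD-L2 or CD73 transcripts was therefore not detectable at this depth in either genotype. Levels were not compared between genes, because probes differ in how efficiently they capture their targets.

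**Figure D1:**
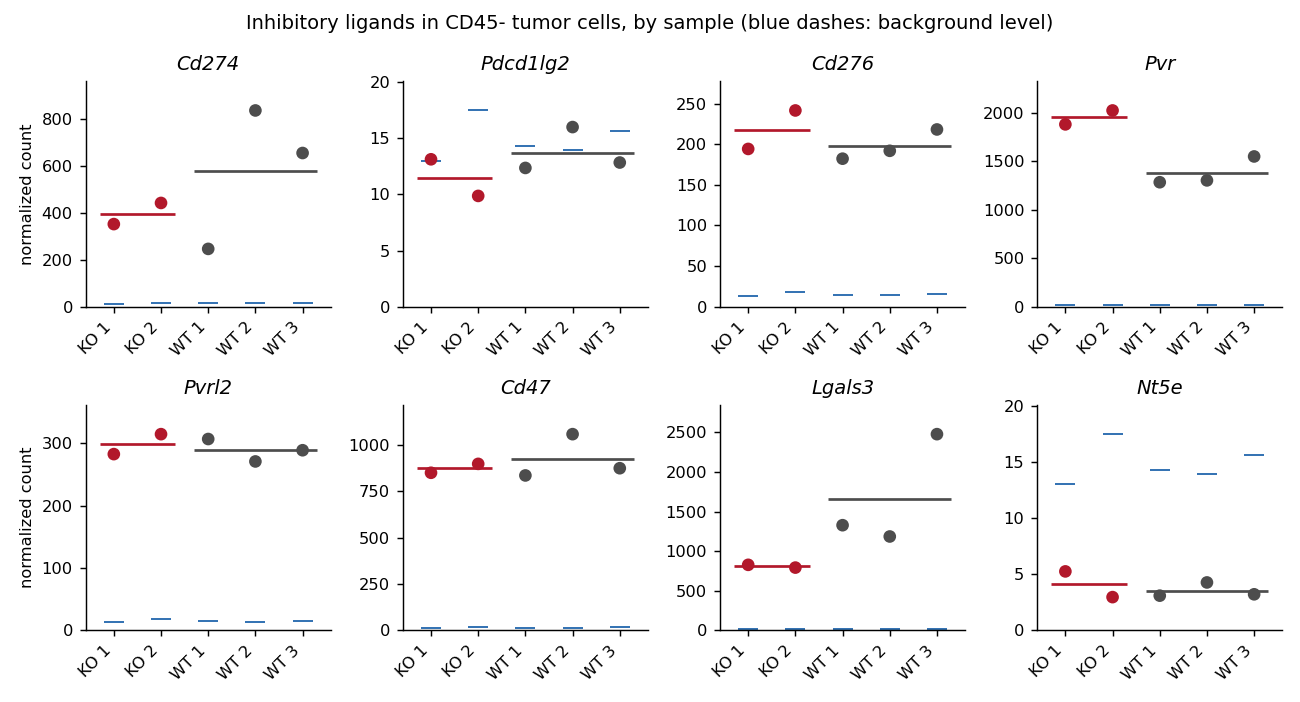
Normalized counts (raw count divided by the sample's housekeeping factor) of the 8 inhibitory ligands in KO 1 and 2 (red) and WT 1 to 3 (grey), with group means as horizontal lines and each sample's background level as a blue dash. Both KO samples lie above the WT samples for Pvr and below them for Lgals3, Cd274 spreads from 246 to 836 within WT, and Pdcd1lg2 and Nt5e lie at or under background.

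No ligand differed between KO and WT at an adjusted p under 0.05 by edgeR's quasi-likelihood test, and neither did any other gene (0% of 401 tested, smallest adjusted p = 0.487). At an unadjusted p under 0.05, 1 ligand was higher in KO (Pvr) and 1 was lower (Lgals3), of 7 tested. Over all tested genes 2.74% were higher and 3.49% lower at that threshold. The same pair were the only members whose groups did not overlap, against 8.98% of all tested genes with both KO samples above every WT sample and 14.7% with both below. Of the 7, which include Pdcd1lg2 at background, 3 had a higher and 4 a lower fitted mean in KO. Their log2 fold changes had a median of −0.08, close to −0.07 over all tested genes, of which 39.4% had a higher mean in KO. With scaling by positive control probes that share was 59.1%, and the median of all tested genes moved from −0.07 to 0.07. Small differences below are read against that move. The 6 ligands above background in every sample had a median of −0.015, with 3 higher and 3 lower. RNA came from bulk cells, in which fewer cells of a type and less RNA per cell cannot be told apart.

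**Figure D2:**
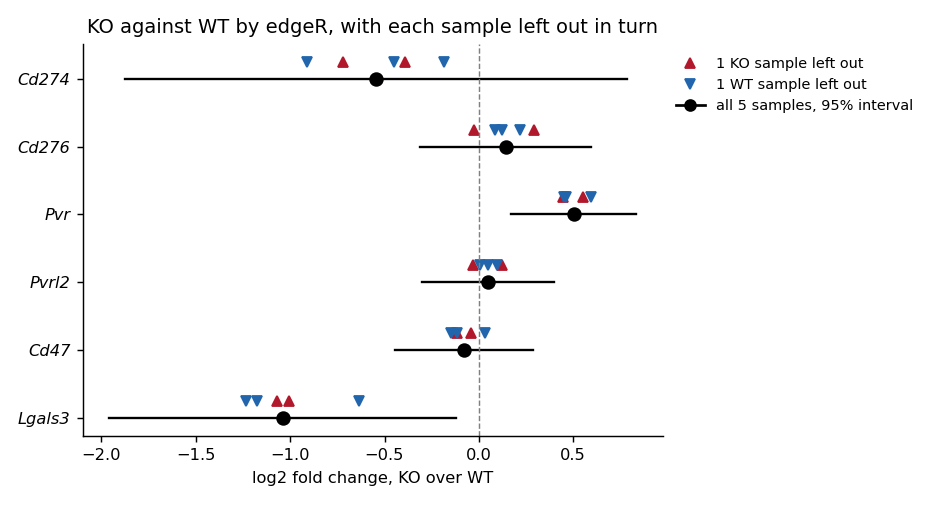
Log2 fold change of KO over WT for the 6 ligands above background in every sample, by edgeR, as points with 95% intervals, and the same value with 1 KO (red) or 1 WT (blue) sample left out as triangles. Only the intervals of Pvr (0.17 to 0.84) and Lgals3 (−1.96 to −0.12) leave out 0, and triangles lie on both sides of 0 for Cd276, Pvrl2 and Cd47.

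The nectin-type ligands CD155 and nectin-2 share receptors, and the groups did not overlap for Pvr but did for Pvrl2. Pvr had 1881 and 2025 normalized counts in KO samples, against 1284, 1303 and 1550.3 in WT samples. Both KO samples were above every WT sample, and the lower KO sample was well above the highest WT sample. Pvr averaged 1953 ± 102 in KO (SD, n = 2) and 1379 ± 148 in WT (SD, n = 3). The log2 fold change was 0.50 (SE 0.13), or 1.42-fold with a 95% interval of 1.12 to 1.78. The unadjusted p = 0.0114 ranked it 8 of 401 genes, and it missed the threshold after adjustment (edgeR adjusted p = 0.487). Its log2 fold change stayed between 0.45 and 0.64 over 17 alternative settings, with an unadjusted p under 0.05 in 16 of them and not without KO 2 (edgeR unadjusted p = 0.0644).

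Pvrl2 had 283 and 315 normalized counts in KO samples, against 307, 271 and 289 in WT samples, and the groups overlapped. It averaged 299 ± 22.6 in KO (SD, n = 2) and 289 ± 18.0 in WT (SD, n = 3), and its log2 fold change was 0.05 with an SE of 0.14 (adjusted p = 0.963 by edgeR). Within the WT group Pvrl2 varied least of the 6 ligands, its highest sample being 1.13 times its lowest, a spread smaller than that of most tested genes.

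A ratio of 2 probes within a sample needs no scaling factor, so the raw counts of Pvr were also divided by those of Pvrl2. The ratio was 6.66 and 6.44 in KO samples, against 4.18, 4.81 and 5.37 in WT samples, without overlap. The log2 difference was 0.46, with an exact permutation p = 0.1 (two-sided), which is the smallest p that 2 against 3 samples allow. This ratio and those of Lgals3 to Cd47 and of Cd274 to Cd276 were chosen after the values were seen, and the adjusted p over these 3 was 0.3 for the first (exact permutation, Benjamini-Hochberg).

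Among genes that followed Pvr most closely over the 5 samples, likeness was taken as the mean absolute difference of log2 values after centring each gene on its own mean. The nearest were Vhl, the ubiquitin ligase subunit that marks hypoxia-inducible factors for degradation (0.08), Gpi1, a glycolytic enzyme (0.12), and Mapk8, a stress-activated kinase (0.12), where the median over all tested genes was 0.33. Vhl had 188 and 212 normalized counts in KO samples, against 151, 149 and 168 in WT samples. Gpi1 had 30637 and 36890.3 in KO samples, against 25065, 22452 and 22824 in WT samples. Both had KO samples above every WT sample, as Pvr did, and Mapk8 overlapped between groups, with 340.4 in KO 1 and 344.5 in WT 3. These genes were picked from 401 for closeness to Pvr, so a shared pattern largely follows from the choice and is a description only. Receptors of Pvr lay at or near background, Tigit with 13 to 26 raw counts over the 5 samples and Cd96 with at most 11.

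Galectin-3 had the largest difference in means among the ligands. Lgals3 had 827 and 792 normalized counts in KO samples, against 1327, 1185 and 2477 in WT samples. Both KO samples were below every WT sample and close to each other, and WT 3 stood apart from the other WT samples. Lgals3 averaged 810 ± 24.7 in KO (SD, n = 2) and 1663 ± 708 in WT (SD, n = 3). The log2 fold change was −1.04 (SE 0.36), or 0.487-fold with a 95% interval of 0.257 to 0.921. Its unadjusted p = 0.0335 ranked 18 of 401, and it missed the adjusted threshold (edgeR adjusted p = 0.710). The log2 fold change was −0.63 without WT 3 (edgeR unadjusted p = 0.00718, adjusted p = 0.849). Leaving out either KO sample ended the unadjusted call, with an unadjusted p = 0.122 without KO 1 and an unadjusted p = 0.137 without KO 2 by edgeR.

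Among WT samples the highest value of Lgals3 was 2.09 times the lowest, a spread larger than that of 76.3% of tested genes. Divided by Cd47 within each sample, Lgals3 gave 0.972 and 0.881 in KO samples, against 1.59, 1.12 and 2.83 in WT samples, again without overlap. The log2 difference was −0.89 (exact permutation p = 0.2, two-sided, adjusted p = 0.3 over the 3 ratios). The genes nearest to Lgals3 over the 5 samples, Serpinb2, a protease inhibitor (0.19), Cd48, a surface ligand of leukocytes (0.20), and Lilra5, a receptor of myeloid cells (0.26), all lay near background with at most 35 raw counts. No well expressed gene was among these 3, and genes further off were not examined.

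Galectin-3 is abundant in macrophages and also made by fibroblasts and many tumor cells, so the markers of other cells are given beside it. The 20 myeloid genes on the panel, 6 of them tested, summed to 421 and 426 normalized counts in KO samples, against 323, 418 and 292 in WT samples. Most of these genes did not pass the background filter, so the sum gives no level of these cells. The largest part of this sum was Cd68, a lysosomal protein, with 243 and 246 in KO samples, against 141, 210 and 128 in WT samples. The 7 fibroblast and pericyte genes on the panel, 6 of them tested, summed to 1685 and 1590.1 in KO samples, against 1345, 1839 and 784 in WT samples. This sum was carried by Fn1, with 1274 and 1294 in KO samples, against 871, 1358 and 454 in WT samples. Both the sum and Fn1 were lowest in WT 3, where Lgals3 was highest. Col1a1 and Col3a1 were instead lowest in KO 2 (5.9 and 7.9), with 20.3 and 18.2 in WT 3. The 10 endothelial genes on the panel, 3 of them tested, summed to 1239 and 1210.3 in KO samples, against 1324, 1624 and 1389 in WT samples, lower in both KO samples as Lgals3 was. The endothelial sum was carried by Eng and Icam2, while Pecam1 and Cdh5 had at most 8 raw counts. The part of these cells in the difference of Lgals3 was not tested.

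The pan-leukocyte genes went both ways, with 3 higher and 1 lower in KO, and their sum was higher in both KO samples. Groups did not overlap for 1 in each direction, where 8.98% of all tested genes were higher and 14.7% lower without overlap. The 5 pan-leukocyte genes on the panel, 4 of them tested, summed to 639 and 654 normalized counts in KO samples, against 478, 432 and 446 in WT samples. Lcp1, an actin-bundling protein made by leukocytes and by many tumor cells, carried the sum with 525 and 540 in KO samples, against 380, 318 and 335 in WT samples, while Ptprc stayed at or below 4 raw counts. Cd48 went the other way and lay near background, with 20.1 and 13.8 in KO samples, against 26.8, 25.6 and 37.4 in WT samples. The 3 melanoma genes tested were mixed, with 1 higher and 2 lower in KO. Mcam had 2684 and 2607 in KO samples, against 1727, 1916 and 1668 in WT samples, and its groups did not overlap either (edgeR unadjusted p = 0.00299, adjusted p = 0.487). S100b was lower in KO, also without overlap, with 1724 and 1849 in KO samples, against 1979, 1987 and 1894 in WT samples. Markers of T and NK cells, 2 of 21 tested, summed to 127 and 138 in KO samples, against 123, 151 and 110 in WT samples. Most of that sum came from probes that did not pass the background filter, so it gives no level of these cells. None of 8 B cell genes was tested. The part of leukocytes, or of a different share of melanoma cells, in the values of Pvr was not tested.

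PD-L1 differed more among WT samples than between genotypes. Cd274 had 352 and 442 normalized counts in KO samples, against 246, 836 and 655 in WT samples. WT 1 was the lowest of all 5 samples and WT 2 and WT 3 the highest, with both KO samples in between. Cd274 averaged 397 ± 63.7 in KO (SD, n = 2) and 579 ± 302 in WT (SD, n = 3). The log2 fold change was −0.54, with an SE of 0.52 and a 95% interval of −1.88 to 0.79, which spans 0.272-fold to 1.73-fold (edgeR adjusted p = 0.841). The highest WT sample was 3.40 times the lowest, a spread larger than that of 91.3% of tested genes, for which the median was 1.38. Without WT 1 the log2 fold change was −0.91 with an unadjusted p = 0.00648 (edgeR adjusted p = 0.130), and without WT 2 it was −0.18 (edgeR unadjusted p = 0.718). Cd274 over Cd276 within a sample gave 1.81 and 1.83 in KO samples, against 1.35, 4.36 and 3.00 in WT samples, with WT 1 again below both KO samples (exact permutation p = 0.6, two-sided, adjusted p = 0.6 over the 3 ratios).

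The genes nearest to Cd274 over the 5 samples were all interferon-stimulated. They were Rsad2, which encodes the antiviral enzyme viperin (0.07), Ddx60, an antiviral helicase (0.14), and Xaf1, a binding partner of the apoptosis inhibitor XIAP (0.15), against a median of 0.53 over all tested genes. Rsad2 had 404 and 598 normalized counts in KO samples, against 293, 995 and 814 in WT samples. As for Cd274, WT 1 was lowest and WT 2 highest. Xaf1 had 612 and 650.0 in KO samples, against 517, 1247 and 1083 in WT samples, in the same order of WT samples. With 5 samples and 401 genes searched, this likeness is a description only.

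**Figure D3:**
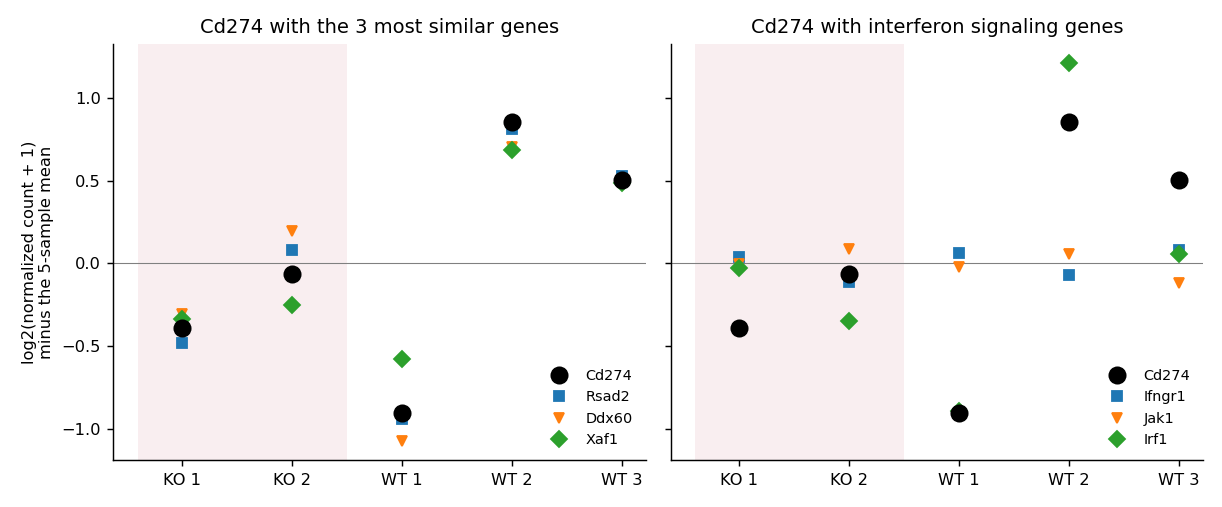
Log2 of the normalized count plus 1, minus the mean over the 5 samples, in KO 1 and 2 (shaded) and WT 1 to 3, for Cd274 with its 3 nearest genes (left) and with interferon signaling genes (right). Rsad2, Ddx60 and Xaf1 track Cd274 with WT 1 lowest and WT 2 highest, Irf1 shares those extremes but not the order of the KO samples, and Ifngr1 and Jak1 stay close to 0 (the point of Irf1 in WT 1 lies behind that of Cd274).

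A chain of the interferon-γ receptor and a kinase bound to it were nearly level across these samples, while Irf1 was not. Ifngr1, the receptor chain, had 580.2 and 523 normalized counts in KO samples, against 589, 539 and 598 in WT samples. Jak1, a kinase that the receptor uses, had 925 and 985 in KO samples, against 911, 964 and 855 in WT samples. Both overlapped between groups. Irf1, a transcription factor known to act on the PD-L1 promoter, had 1027 and 823 in KO samples, against 564, 2433 and 1092 in WT samples. Irf1 was lowest in WT 1 and highest in WT 2, as Cd274 was, but was higher in KO 1 than in KO 2, unlike Cd274, and its groups overlapped. In the list of interferon signaling, NF-κB and other known regulators of PD-L1, 22 of 24 genes were on the panel and tested, with 7 higher and 15 lower in KO and a median of −0.16 beside −0.07 over all genes. None was past the adjusted threshold, 2 were lower at an unadjusted p under 0.05, and groups did not overlap for 1 higher (Hif1a) and 5 lower (Ifnar2, Stat2, Nfkb2, Relb and Myc). Over all tested genes 39.4% had a higher mean in KO, 3.49% were lower at that p, and 8.98% were higher and 14.7% lower without overlap. The pair below 0.05 were Relb (log2 fold change −1.09, edgeR unadjusted p = 0.00153) and Nfkb2 (−0.54, edgeR unadjusted p = 0.0110), the subunits of noncanonical NF-κB. Unlike Cd274, both were higher in WT 1 than in either KO sample, with Relb at 131 and 143 in KO 1 and 2, against 255 in WT 1. Irf7, an inducer of interferon genes, had the smallest p after them (log2 fold change −1.22, SE 0.55, edgeR unadjusted p = 0.0749, adjusted p = 0.710) and overlapped between groups.

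Sequences before the start sites of Cd274, Pdcd1lg2 and Rsad2 are shown because the values of Cd274 followed an interferon-stimulated gene and those of Pdcd1lg2 did not leave background. They are from RefSeq on build GRCm38.p6, each the 250 bases before the start site, in the direction of transcription, with matches to motifs bound by interferon-activated factors in capitals. Cd274 lies on chromosome 19 (chr19:29367188-29367437, plus strand), Pdcd1lg2 on the same strand of chromosome 19 (chr19:29410669-29410918) and Rsad2 on chromosome 12 (chr12:26456453-26456702, minus strand).
Cd274: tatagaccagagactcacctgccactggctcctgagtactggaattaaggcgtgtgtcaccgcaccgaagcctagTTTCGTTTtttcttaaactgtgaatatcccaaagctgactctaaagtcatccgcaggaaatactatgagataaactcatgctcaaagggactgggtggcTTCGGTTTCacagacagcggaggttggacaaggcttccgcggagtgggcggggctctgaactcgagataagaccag
Pdcd1lg2: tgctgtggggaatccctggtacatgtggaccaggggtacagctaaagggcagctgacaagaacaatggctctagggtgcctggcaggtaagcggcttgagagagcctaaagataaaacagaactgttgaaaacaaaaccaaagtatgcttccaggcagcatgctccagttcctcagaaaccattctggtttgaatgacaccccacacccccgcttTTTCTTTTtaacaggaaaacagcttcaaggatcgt
Rsad2: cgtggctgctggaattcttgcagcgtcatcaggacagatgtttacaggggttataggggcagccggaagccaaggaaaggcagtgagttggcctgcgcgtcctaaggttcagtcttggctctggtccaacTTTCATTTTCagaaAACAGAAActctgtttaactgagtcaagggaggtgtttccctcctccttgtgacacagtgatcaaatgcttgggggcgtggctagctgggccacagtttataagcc

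The motifs searched, on both strands and from 250 bases before to 50 after the start site, were GAAANNGAA (the core of the interferon-stimulated response element) and AANNGAAA (the element bound by interferon regulatory factors). Matches of the 2 motifs can overlap, as at the first run of capitals in Rsad2. The Cd274 promoter held GAAANNGAA once, its first base 76 bases before the start, and AANNGAAA once, 175 bases before it. The Pdcd1lg2 promoter held AANNGAAA once, 35 bases before the start, and the Rsad2 promoter held GAAANNGAA once and AANNGAAA in 2 places. Among 7 of the 8 ligands with an entry, Cd274 was the 1 with GAAANNGAA and 2 held AANNGAAA, while Cd276, Pvrl2 (listed there as Nectin2), Cd47, Lgals3 and Nt5e held neither. Of 32851 promoters of this length, 8.56% held GAAANNGAA and 23.9% AANNGAAA. Xaf1 held AANNGAAA in 2 places and no GAAANNGAA, and Ddx60 held GAAANNGAA in 2 and AANNGAAA in 4 places. A match describes the letters and does not show that a factor was bound. Pvr was not searched.

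Cd47 and Cd276 differed little between genotypes. Cd47, the signal that restrains engulfment, had 851 and 899 normalized counts in KO samples, against 836, 1059 and 875 in WT samples. The KO samples lay inside the WT range, and the means were 875 ± 34.0 in KO (SD, n = 2) and 923 ± 119 in WT (SD, n = 3), with a log2 fold change of −0.08 (SE 0.14, adjusted p = 0.909 by edgeR) and a 95% interval of 0.735-fold to 1.22-fold. Its direction changed with positive control scaling (log2 fold change 0.07) and without WT 2 (0.03). The nearest genes were Ifna1, an interferon at background, Tyk2, a kinase of interferon receptors, and Runx1, a transcription factor (0.04 to 0.05, against a median of 0.21 over all genes).

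Cd276, a B7 family ligand whose receptor on T cells is not settled, had 194 and 242 normalized counts in KO samples, against 182, 192 and 218 in WT samples. The groups overlapped, with means of 218 ± 33.5 in KO (SD, n = 2) and 197 ± 18.6 in WT (SD, n = 3). The log2 fold change was 0.14 with an SE of 0.18 (adjusted p = 0.884 by edgeR) and a 95% interval of 0.806-fold to 1.51-fold, and it was −0.02 without KO 2. Ctsl, a lysosomal protease, and Traf6, a signaling adaptor, had nearly the same profile as Cd276 over the 5 samples (0.02 each), followed by Psma2, a proteasome subunit (0.05). For Pvrl2 the nearest genes were Ifitm2, an antiviral membrane protein, Tgfb2 and Rela, the canonical NF-κB subunit (0.03 to 0.04). For Pdcd1lg2 they were Fadd, Tbk1 and Tab1, which carries no weight at its counts.

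Among receptors and binding partners of the ligands, Pdcd1, Tigit, Cd96 and Lag3 lay at or near background. Others were above it, such as Itga4 with 280 to 421 raw counts and Ada with 29 to 61. Of 25 listed, 18 were on the panel and 10 were tested. Of these, 6 were higher and 4 lower in KO (median 0.12), 1 was higher at an unadjusted p under 0.05, and 4 were higher and 0 lower without overlap between groups, where 2.74% of all tested genes were higher at that p and 8.98% higher and 14.7% lower without overlap. Pdcd1, which encodes PD-1, had 4 and 5 raw counts in KO samples, against 4, 10 and 7 in WT samples, and was not tested. Neither were Cd80, Adora2a (an adenosine receptor), Entpd1 (which makes the AMP that CD73 uses) and Cd200r1, with at most 8.

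The partners of smallest p were integrin subunits and a matrix protein that associate with CD47. Itgb3, the β subunit of integrin αvβ3, with which CD47 associates, had 130.4 and 168 normalized counts in KO samples, against 109, 88.5 and 86.7 in WT samples. Both KO samples were above every WT sample (log2 fold change 0.65, SE 0.21, edgeR unadjusted p = 0.0275, adjusted p = 0.710). Itgb1, the β1 subunit, had 9146 and 9823 in KO samples, against 8688, 8073 and 8462 in WT samples, also without overlap, at a log2 fold change of 0.17 (edgeR unadjusted p = 0.132). The other partners without overlap, Lag3 and Cd38, were near background with at most 28 raw counts. Thbs1, the matrix ligand of CD47, had 33 and 17 raw counts in KO samples, against 36, 54 and 25 in WT samples, with overlap (edgeR unadjusted p = 0.122).

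Other inhibitory ligands and enzymes showed no difference past either threshold. Of 20 listed, 15 were on the panel and 8 tested, with 1 higher and 7 lower in KO, a median of −0.11 and 0 without overlap. Over all tested genes, too, fewer were higher than lower (39.4% higher), and 8.98% were higher and 14.7% lower without overlap. The smallest p-values belonged to Tgfb1, a suppressive cytokine, with 246 and 293 normalized counts in KO samples, against 307, 280.5 and 298 in WT samples (edgeR unadjusted p = 0.406), Hmgb1, a danger signal, and Tgfb3, a further member of the Tgfb1 family. Ido1, the interferon-induced enzyme that breaks down tryptophan, had at most 7 raw counts. H2-T23, which encodes the ligand of the inhibitory receptor NKG2A, had 105 and 251 in KO samples, against 64.9, 399 and 152 in WT samples. Like Cd274, H2-T23 was lowest in WT 1 and highest in WT 2, with both KO samples inside the WT range, and so were Tnfsf10, which encodes TRAIL (14.4 to 81.1 normalized counts in WT), and Tnfrsf14, a ligand of BTLA (46.3 to 138 in WT). These 3 were singled out after their values were seen.

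Costimulatory and NK-activating ligands went both ways. Of 18 listed, 14 were on the panel and 7 tested, with 4 higher and 3 lower in KO (median 0.03), beside 39.4% higher over all tested genes. Cd48, near background with 23 and 14 raw counts in KO samples, against 26, 24 and 35 in WT samples, was lower in KO without overlap (log2 fold change −0.81, edgeR unadjusted p = 0.0490, adjusted p = 0.710). No other tested gene of the list was under 0.05 or without overlap. Of all tested genes, 3.49% were lower at an unadjusted p under 0.05 and 14.7% lower without overlap. Icosl, the ligand of the costimulatory receptor ICOS, had 121 and 99.6 normalized counts in KO samples, against 90.6, 103 and 108 in WT samples, and Icam2, an adhesion ligand, had 298 and 203 in KO samples, against 274, 369 and 355 in WT samples. Both overlapped between groups. Ulbp1, an NK-activating ligand, had 259 and 214 in KO samples, against 232, 220 and 275 in WT samples, with overlap (log2 fold change −0.03). The list held Raet1a and Raet1c but not the panel's Raet1 probe. Raet1 was tested and averaged 343 in KO and 335 in WT samples (log2 fold change 0.03). Cd80, Cd40 and Cd70 lay below background in every sample.

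**Figure D4:**
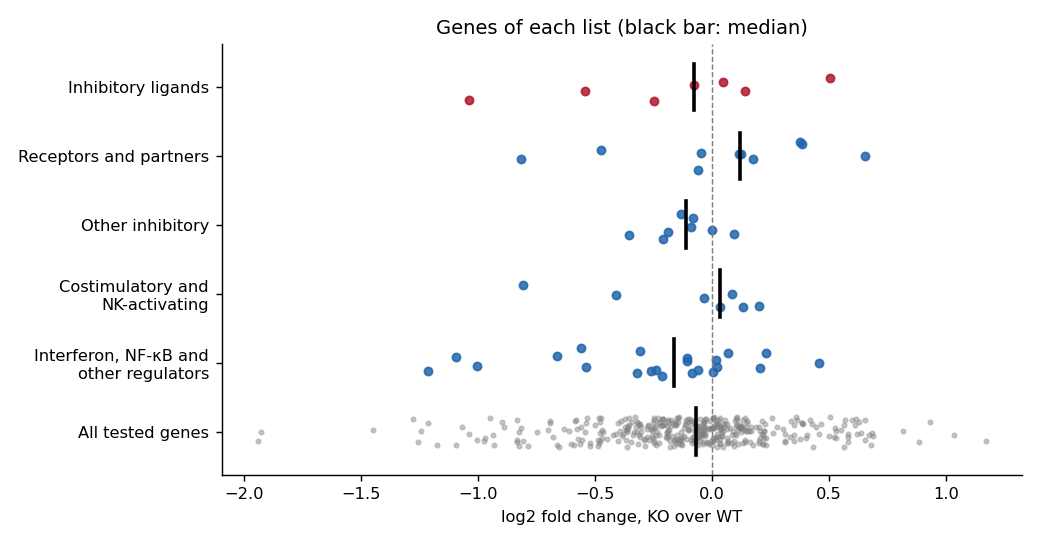
Log2 fold change of KO over WT by edgeR for each tested gene (points) of the inhibitory ligands, of 4 lists of related genes and of all 401 tested genes, with the median as a black bar. Medians lie between −0.16, for interferon and NF-κB regulators, and 0.12, for receptors and partners, beside −0.07 for all tested genes (the ligands include Pdcd1lg2, which lies at background).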

How the data were processed

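RNA of the sorted cells (100 ng per sample) was hybridized to the nCounter Mouse PanCancer Immune Profiling probes. The authors deposited raw barcode counts of 784 probes (750 endogenous, 20 housekeeping, 8 negative and 6 positive controls), not scaled or subtracted. The authors also deposited a normalized signal, made in nSolver, which equalled the raw count times 1 factor per sample (KO 0.842 and 0.959, WT 0.981 to 1.04), with endogenous values under 15 set to 15. The sources used here do not give its reference genes. The files' column on samples above threshold was left aside.

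Sample codes in the labels tied columns to samples, and titles gave the groups. Normalized counts are counts over a factor, the geometric mean of the 20 housekeeping probes relative to its average (factors of 1.14 and 1.01 for KO 1 and 2, and of 0.971, 0.938 and 0.935 for WT 1, 2 and 3). Probes above background (mean plus 2 SD of negative controls) in at least 2 samples were tested, 401 of 750, with genotype as the only term in edgeR 4.0.16 (quasi-likelihood test, R 4.3.3) and Benjamini-Hochberg adjustment over all of them. Standard errors were taken from the F statistic, and 95% intervals from the t distribution at its degrees of freedom. The fit was tested on simulated data with known changes.

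The 8 ligands and the gene lists were chosen with earlier results of these data known. Named genes were the ligands, from each list those at an unadjusted p under 0.05 and up to 3 of smallest p, and the 3 genes nearest to each ligand, where likeness was the mean absolute difference of centred log2 (normalized count plus 1). Genes named outside this rule were chosen after their values were seen. Alternatives were scaling by total count, positive controls, TMM or DESeq2 size factors, no filter, a mean count of at least 50, subtraction of the negative controls, DESeq2 1.42.0, limma 3.58.1, the methods' t-test, the deposited signal, the replicate block and each sample left out. All 8 ligands matched a RefSeq transcript by accession, and 7 had a promoter entry. A gene of the regulator list is counted in it and not reported here by name. The number of samples limits the precision of every value.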

Additional observations from a re-analysis of the deposited data

How the results depend on the processing

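At an adjusted p under 0.05 edgeR called 0 genes (25 at an unadjusted p under 0.05) and the Wald test of DESeq2 called 3, none of them among these ligands, while all other alternatives called 0. The unadjusted count was 39 without a filter, 16 with the replicate block and 10 to 50 with 1 sample left out, lowest without KO 2 and highest without WT 1. Of the 6 ligands above background, Pvr, Lgals3 and Cd274 kept their direction in all 17 alternatives. Log2 fold changes with 1 sample left out were 0.45 to 0.59 for Pvr, −1.23 to −0.63 for Lgals3 and −0.91 to −0.18 for Cd274. For Cd276 they were −0.0237 (without KO 2) to 0.29, for Pvrl2 −0.0314 (without KO 2) to 0.12 and for Cd47 −0.15 to 0.0315 (without WT 2), and Cd47 had 0.0678 with positive controls only. The median of the 6 ranged from −0.075 to 0.042 with 1 sample left out and reached 0.13 with positive controls only. Lgals3 was at an unadjusted p under 0.05 in 11 of 17 alternatives and not with the methods' t-test. The cause of these shifts was not tested.

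Deviations of same-numbered samples from their group means correlated at 0.295 and 0.00025. With 2 KO samples, the deviations of KO 1 and KO 2 are equal and opposite, so these values cannot show whether samples were paired. The numbers were not taken to pair the samples, because the labels do not say that they do. With the replicate block, in which WT 3 has no partner and informs no difference, the log2 fold change was 0.59 for Pvr, −0.63 for Lgals3 and −0.21 for Cd274, and no ligand changed direction or passed the adjusted threshold. Where 1 KO sample was left out, the remaining one was assumed to vary as WT samples do. PD-L2 and CD73 transcripts were at or below background, so no difference is read from either. Pdcd1lg2 enters only the counts and the median of the tested ligands.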
